A study of Mus musculus with 33 samples.

Results

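The transcriptional response to tunicamycin (TM) in the kidney of F1 mice was measured by RNA sequencing in 6 of the 33 samples of the series, 3 from TM-treated and 3 from control mice. These are all the F1 kidney samples, taken from the sample records. TM mice (replicates 1, 2 and 3) received an intraperitoneal injection of TM in DMSO at 1 mg per kg body weight, and control mice (replicates 1, 2 and 3) received DMSO alone. All were male offspring of female C57BL/6J (B6) and male CAST/EiJ (CAST) mice, aged 15 to 23 weeks, so that both groups carried 1 B6 and 1 CAST genome. The sample records give 24 h between injection and tissue collection, and the study's methods give a shorter interval. Per the study's methods each F1 mouse was a separate animal, so the spread between libraries includes that between mice. Total RNA from whole kidney was sequenced after ribosomal RNA depletion with a strand-preserving kit. Values are read counts per gene divided by a size factor per library, called normalized counts here, and 24064 of 43475 gene identifiers had a mean of at least 5 normalized counts over the 6 libraries and were tested. For the comparison with other kidneys and with liver, 6 B6 kidney, 6 CAST kidney and 5 F1 liver samples were used.

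TM blocks DPAGT1, the enzyme that starts the assembly of the sugar chain used for N-linked glycosylation, and unglycosylated proteins misfold in the endoplasmic reticulum (ER). The unfolded protein response (UPR) is started by 3 sensors in the ER membrane. IRE1 (gene Ern1) splices the messenger RNA of the transcription factor XBP1, ATF6 is cut in the Golgi to release a transcription factor, and PERK (gene Eif2ak3) phosphorylates eIF2 alpha, which slows translation in general while that of ATF4 goes up. XBP1 and ATF6 are known for chaperone and degradation genes, and ATF4 with CHOP (gene Ddit3) for amino acid supply, redox and cell death genes. In rodents, TM damages mainly the proximal tubule, the segment of the nephron that reabsorbs most of the filtered solutes.

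Control 1 stood apart from the other 5 libraries. The TM libraries held 12974020 to 13646195 reads assigned to genes and controls 2 and 3 held 13147279 and 13412378, against 3355262 in control 1. Odorant, vomeronasal and trace amine receptor genes, which are hardly transcribed in kidney, summed to 95.12 to 247 CPM (their reads as a share of the library's reads, scaled to a fixed total) in the TM libraries and to 224.5 and 286.3 CPM in controls 2 and 3, against 1410 CPM in control 1. Reads fell on 29735 to 36414 genes in the other 5 libraries and on 39289 genes in control 1. In TM 2, the repeat-rich predicted gene Gm10800 took 6.87% of the reads, the largest share of any gene in that library. Of the 7920 genes with a mean under 20 normalized counts, 69% were highest in control 1, as were 10.3% of the 12617 genes with a mean of 50 or more. The median log2 fold change was -0.66 for the first set and 0.20 for the second, with -0.13 over all tested genes. A low gene can pass the mean filter through control 1 alone, and without that library 21033 genes passed it. The 69% and the median of -0.66 can thus follow in part from the filter. Many results, but not all, are therefore also given without control 1, and the part of this library in each result was not tested beyond that. Other pairs of replicates had log2 values that correlated at 0.955 to 0.984 across genes, and control 1 correlated with controls 2 and 3 at 0.825 and 0.834. No pair of libraries within a group was alike enough to be a duplicate (chi-square per degree of freedom of 19.9 or more), and pairs of a TM and a control library were not compared in this way.

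A total of 2433 genes changed with TM in F1 kidney, most of them upward. Of these, 1815 (7.54% of those tested) were higher and 618 (2.57%) were lower in TM than in control kidneys, at an adjusted p below 0.05 (limma on log2 of the normalized count plus 1) and at least a 1.5-fold change. The 3 TM values lay above the 3 control values in every gene called higher and below them in every gene called lower, and the same separation was seen in 19.5% of all tested genes (TM above) and in 14.1% (TM below). Median log2 fold changes were 1.13 for the genes called higher and -1.32 for those called lower, and 229 rose and 115 fell at least 4-fold. Of the genes called higher, 96.2% had a mean of 50 or more normalized counts, and of those called lower, 61.7%. Without control 1, 2328 genes were higher (11.1% of 21033 tested) and 1584 lower (7.53%), which included 1792 of the 1815 and 614 of the 618. Leaving out TM 1, TM 2 or TM 3 lowered the counts to 887, 881 and 836 genes higher and to 273, 250 and 248 lower, and leaving out control 2 or control 3 lowered the number of genes called lower to 348 and 302.

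**Figure D1:**
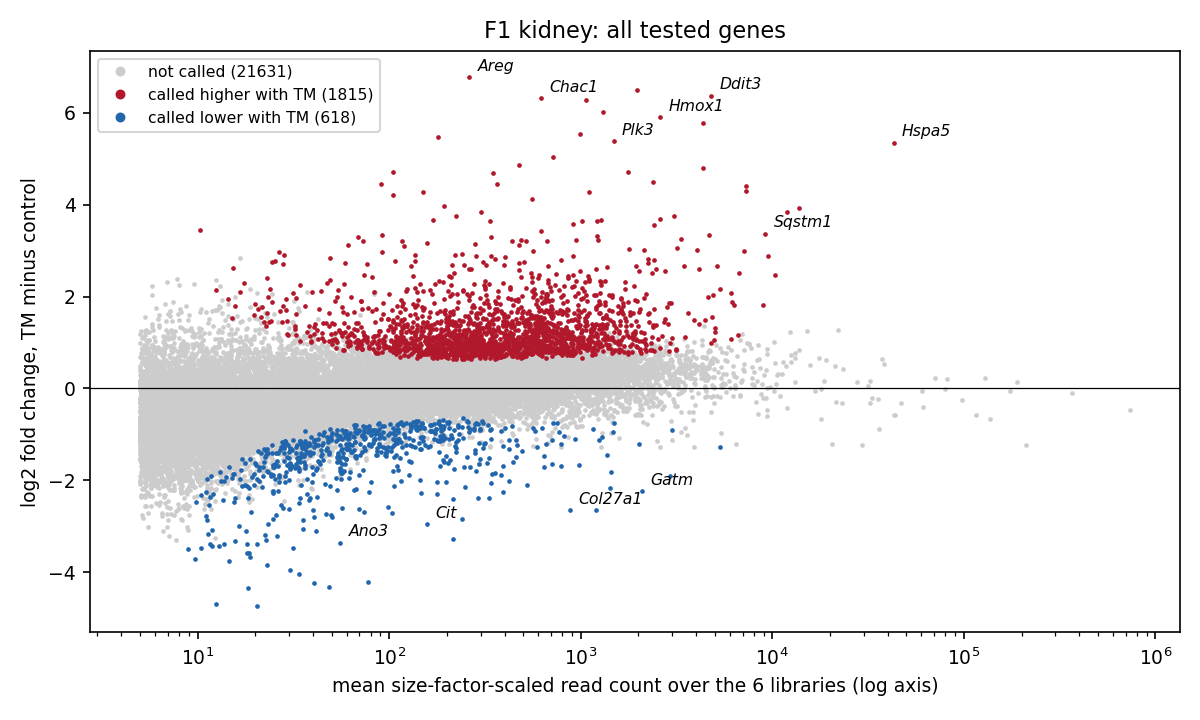
Log2 fold change (TM minus control, vertical axis) against the mean normalized count over the 6 F1 kidney libraries (horizontal log axis), 1 point per tested gene. The 1815 genes called higher reach 6.78 at Areg, and 61.7% of the 618 genes called lower have a mean of 50 or more.

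The 12 largest rises (among called genes with a mean of at least 50) included 9 members of the chaperone, degradation, UPR factor and PERK target lists, beside Areg, Hmox1 and Plk3. Areg, which encodes the EGF receptor ligand amphiregulin, had 624.5, 441.1 and 495.9 normalized counts in TM kidneys, against 5.201, 3.057 and 3.13 in control kidneys, a log2 fold change of 6.78 ± 0.27 (SE, adjusted p = 1.67e-06). The size of this fold rests on few control reads. Areg was followed by Atf3 (6.50), Ddit3 (6.38), Chac1 (6.32), Trib3 (6.28), Sdf2l1 (6.03), Hmox1 (5.91), Creld2 (5.79), Derl3 (5.55), Fgf21 (5.47), Plk3 (5.39) and Hspa5 (5.35), all as log2 fold changes. Without control 1 the order changed, with Chac1 at 7.02 above Areg at 6.98, Atf3 at 6.53, Trib3 at 6.41 and Ddit3 at 6.07. Hmox1 encodes heme oxygenase 1, which degrades heme under oxidative stress, and Plk3 encodes a stress-responsive polo-like kinase. Hmox1 had 5241, 5696 and 4426 normalized counts in TM kidneys, against 54.61, 79.48 and 135.4 in control kidneys. Plk3 had 3315, 2746 and 2629 in TM kidneys, against 75.42, 47.38 and 86.85 in control kidneys. In each of these genes the lowest TM library was far above the highest control library, and all stayed called in each of the 17 alternative settings.

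Nearly the whole set of ER chaperones and folding enzymes rose. Of the 30 tested, 28 were called higher and none lower, with a median log2 fold change of 2.23 (2.04 without control 1, with the same 28 to 0 count). Hspa5, the ER chaperone BiP that also holds the 3 sensors inactive, had 97478, 79579 and 74342 normalized counts in TM kidneys, against 1529, 2040 and 2702 in control kidneys (log2 fold change 5.35 ± 0.38, adjusted p = 2.32e-05). It was the most abundant of these transcripts in each TM library. Hyou1, a large chaperone that exchanges nucleotide on BiP, had 13157, 15209 and 13391 in TM kidneys, against 371.9, 901.1 and 846.6 in control kidneys (4.40 ± 0.34, and 3.99 without control 1). Creld2, an ER stress protein with disulfide-handling motifs, had 8972, 7084 and 9563 in TM kidneys, against 119.6, 136.8 and 215.9 in control kidneys. Sdf2l1, a partner of an ER DnaJ protein, had 2726, 2200 and 2762 in TM kidneys, against 31.21, 33.63 and 52.42 in control kidneys. Manf (4.49), Pdia4 (4.30), Hsp90b1 (3.93) and Dnajb9 (3.69) followed on the log2 scale. The smallest called rise was 0.71, in the prolyl isomerase gene Fkbp2. Sil1, the other nucleotide exchange factor of BiP, had a smaller log2 fold change, with 507.1, 368.2 and 364.7 in TM kidneys, against 179.4, 235.4 and 217.5 in control kidneys (0.96 ± 0.21, adjusted p = 0.0155), and its call was lost without TM 1, TM 2 or TM 3 although its log2 fold change was 0.85 without control 1. Beside the 28 of 30, the share called higher among all genes was 7.54%. The 2 members not called were Fkbp14 (-0.12) and Cdnf (-0.36).

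**Figure D2:**
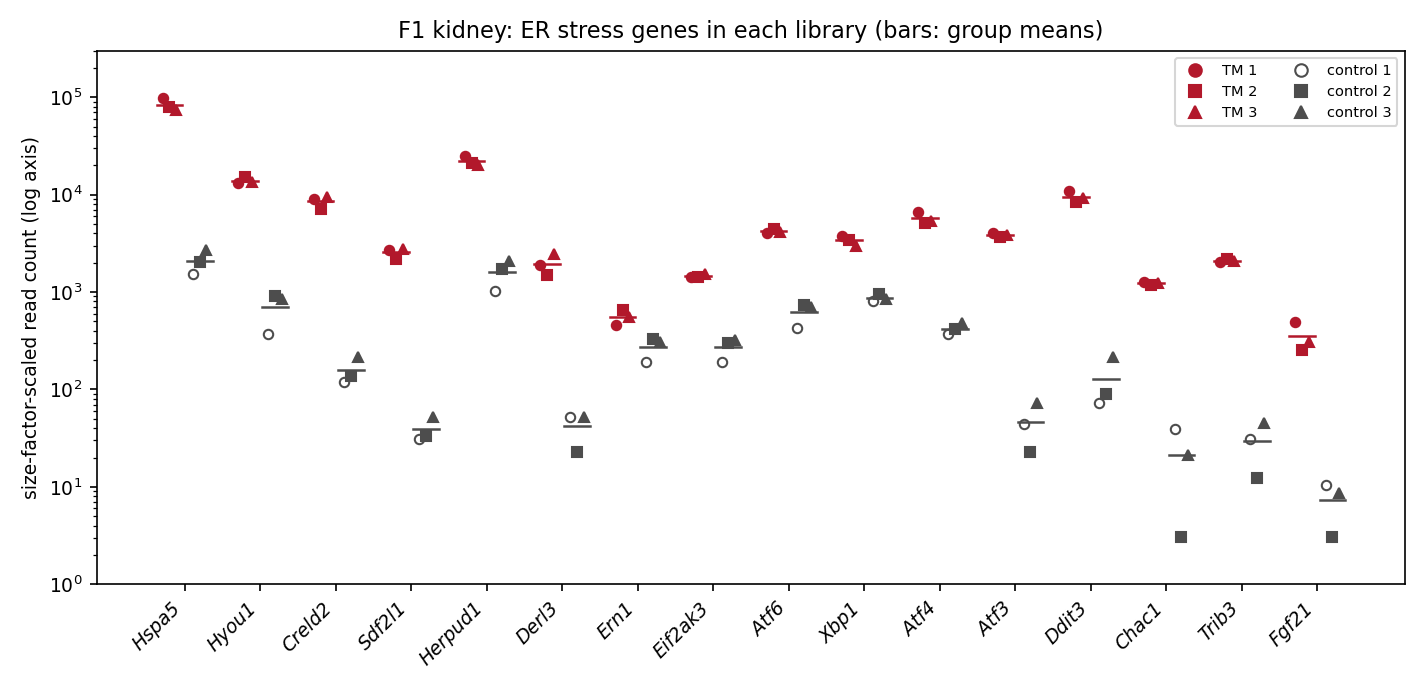
Normalized counts (log axis) of 16 ER stress genes in each F1 kidney library, TM in red left of control in grey, with a bar at each group mean. The groups do not overlap in any of these genes, and the smallest distance is that of Ern1.

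ER-associated degradation, which takes misfolded proteins out of the ER to the proteasome, was raised as well. Of 29 genes tested, 20 were higher and none lower, beside shares of 7.54% and 2.57% over all genes. The median log2 fold change of the 29 was 1.17, and 1.03 without control 1 with the same counts. Derl3, a derlin of the retrotranslocation channel, had 1880, 1484 and 2468 normalized counts in TM kidneys, against 52.01, 22.93 and 52.42 in control kidneys (5.55 ± 0.32, adjusted p = 5.94e-06). Herpud1, a membrane protein that scaffolds the degradation complex, had 24950, 21186 and 20301 in TM kidneys, against 1019, 1728 and 2087 in control kidneys (3.84 ± 0.33). The ligase gene Syvn1 (HRD1) had 1516, 2899 and 2686 in TM kidneys, against 104, 222.4 and 240.2 in control kidneys (3.68 ± 0.35). Its partner Sel1l rose by 3.33, and the mannosidase-like genes Edem1, Edem2 and Edem3 by 2.67, 1.59 and 1.63. Of the related derlins, Derl1 and Derl2 rose by 2.17 and 1.57, so that the order of the 3 log2 fold changes was Derl3, Derl1, Derl2. Members that were not called included the ligase gene Rnf5 (0.19). With limma's variance trend switched off, 13 members were called.

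All 3 sensors rose, by different amounts. Atf6 had 4075, 4426 and 4133 normalized counts in TM kidneys, against 429.1, 741.3 and 694.8 in control kidneys (2.80 ± 0.25, adjusted p = 8.59e-05). Eif2ak3 (PERK) had 1421, 1412 and 1526 in TM kidneys, against 192.4, 296.5 and 324.7 in control kidneys (2.45 ± 0.22). Ern1 (IRE1) had 463.4, 647.5 and 549.1 in TM kidneys, against 189.8, 328.6 and 307.5 in control kidneys (1.03 ± 0.24, adjusted p = 0.0238). The rise of Ern1 was not called without TM 1, TM 2 or TM 3, and was 0.78 without control 1 (adjusted p = 0.006). Whether these rises differ among the sensors was not tested.

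The transcription factors downstream were among the strongest risers. Of 21 sensors and transcription factors tested, 14 were higher and none lower (median log2 fold change 1.58), beside shares of 7.54% and 2.57% over all genes. Ddit3 (CHOP) had 10840, 8415 and 9196 normalized counts in TM kidneys, against 72.81, 89.42 and 217.5 in control kidneys (6.38 ± 0.35, adjusted p = 4.78e-06). Atf3 had 4075, 3707 and 3884 in TM kidneys, against 44.21, 22.93 and 72.77 in control kidneys (6.50 ± 0.34). Atf4, whose protein is controlled mainly by translation, had 6606, 5142 and 5344 in TM kidneys, against 366.7, 420.4 and 477.3 in control kidneys (3.75 ± 0.21). Bhlha15 (MIST1), a factor of secretory cells, had 194.5, 357.5 and 289.8 in TM kidneys, against 41.61, 4.586 and 10.95 in control kidneys (4.27 ± 0.59, and 5.06 without control 1). Xbp1, counted here over all its transcripts and without regard to splicing, had 3782, 3442 and 2997 in TM kidneys, against 808.8, 955.3 and 853.6 in control kidneys (1.96 ± 0.21). Jdp2, a bZIP repressor, had 129.3, 105.8 and 90.97 in TM kidneys, against 46.81, 58.85 and 56.34 in control kidneys (0.99 ± 0.23, adjusted p = 0.021), a call that was lost without control 3 or any single TM library (0.89 without control 1). The proteases that cut ATF6 did not pass the test (Mbtps1 0.21, Mbtps2 0.29), nor did the related factors Creb3l1 (0.13) and Creb3l2 (0.10).

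Genes known as PERK, ATF4 and CHOP targets had the highest median of the 41 lists. Of 31 tested, 25 were higher and none lower (median log2 fold change 2.70), and 28 were higher and 1 lower without control 1. Shares over all genes were 7.54% and 2.57%, and 11.1% and 7.53% without control 1. Chac1, which degrades glutathione, had 1260, 1168 and 1249 normalized counts in TM kidneys, against 39.01, 3.057 and 21.13 in control kidneys (6.32 ± 0.64, adjusted p = 0.000195, and 7.02 without control 1). Trib3, a pseudokinase that binds ATF4 and CHOP, had 2024, 2197 and 2089 in TM kidneys, against 31.21, 12.23 and 45.38 in control kidneys (6.28 ± 0.37). Fgf21, an endocrine growth factor known mainly from liver, had 495.1, 252.6 and 307.6 in TM kidneys, against 10.4, 3.057 and 8.607 in control kidneys (5.47 ± 0.40). These 3 genes had control values of 45.38 or less, so that the size of their folds rests on few control reads. Asns (asparagine synthesis, 5.05), Mthfd2 (mitochondrial folate metabolism, 4.87), Ppp1r15a (GADD34, which dephosphorylates eIF2 alpha, 4.72) and Gdf15 (a stress hormone, 4.69) also rose. The death receptor gene Tnfrsf10b (-0.18) and the BH3-only gene Bcl2l11 (BIM, -0.60) did not pass the test.

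The promoters of 8 of these genes are shown because they carry the letters of the response elements that are known to bind the UPR factors. The windows run from 250 bases before to 50 bases after the transcript start, 5′ to 3′ on the strand of the gene (RefSeq, build GRCm38.p6), and capitals mark the matches. In Hspa5, Creld2 and Derl3 the capitals are an ERSE (CCAAT, 9 bases, CCACG, or its reverse complement), in Herpud1 an ERSE-II (ATTGGNCCACG) and, further upstream, a CARE (TGATGNAAN), and in Chac1, Trib3, Atf3 and Fgf21 a CARE, here always on the reverse strand.
Hspa5, chr2:34771840-34772139, plus strand: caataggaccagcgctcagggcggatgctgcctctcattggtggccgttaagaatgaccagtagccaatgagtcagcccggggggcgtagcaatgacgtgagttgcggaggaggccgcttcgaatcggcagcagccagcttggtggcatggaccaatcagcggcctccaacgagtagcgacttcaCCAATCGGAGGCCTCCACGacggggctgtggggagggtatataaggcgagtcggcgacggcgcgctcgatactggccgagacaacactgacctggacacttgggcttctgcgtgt
Creld2, chr15:88819396-88819695, plus strand: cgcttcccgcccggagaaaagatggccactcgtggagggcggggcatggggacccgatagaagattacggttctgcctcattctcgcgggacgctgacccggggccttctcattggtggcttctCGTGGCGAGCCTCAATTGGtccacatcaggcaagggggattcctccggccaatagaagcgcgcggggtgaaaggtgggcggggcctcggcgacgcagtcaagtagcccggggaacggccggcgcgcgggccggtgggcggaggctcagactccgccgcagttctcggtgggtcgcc
Derl3, chr10:75893148-75893447, plus strand: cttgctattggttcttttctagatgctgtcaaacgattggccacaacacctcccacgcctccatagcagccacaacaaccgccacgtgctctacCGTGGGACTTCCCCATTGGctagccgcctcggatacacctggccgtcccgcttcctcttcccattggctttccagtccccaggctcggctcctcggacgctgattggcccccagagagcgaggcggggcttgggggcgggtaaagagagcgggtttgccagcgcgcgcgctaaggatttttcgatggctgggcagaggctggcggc
Herpud1, chr8:94386179-94386478, plus strand: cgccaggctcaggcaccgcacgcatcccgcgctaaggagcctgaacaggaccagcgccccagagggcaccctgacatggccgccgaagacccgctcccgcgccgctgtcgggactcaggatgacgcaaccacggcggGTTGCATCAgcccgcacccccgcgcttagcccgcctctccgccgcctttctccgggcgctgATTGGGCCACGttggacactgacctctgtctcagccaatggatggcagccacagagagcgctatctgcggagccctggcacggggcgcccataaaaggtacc
Chac1, chr2:119350992-119351291, plus strand: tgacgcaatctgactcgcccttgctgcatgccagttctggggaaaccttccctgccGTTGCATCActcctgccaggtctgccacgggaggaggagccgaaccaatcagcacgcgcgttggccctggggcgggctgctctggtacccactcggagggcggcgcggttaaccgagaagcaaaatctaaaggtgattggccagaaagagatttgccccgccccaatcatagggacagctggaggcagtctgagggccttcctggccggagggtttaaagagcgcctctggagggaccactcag
Trib3, chr2:152344011-152344310, minus strand: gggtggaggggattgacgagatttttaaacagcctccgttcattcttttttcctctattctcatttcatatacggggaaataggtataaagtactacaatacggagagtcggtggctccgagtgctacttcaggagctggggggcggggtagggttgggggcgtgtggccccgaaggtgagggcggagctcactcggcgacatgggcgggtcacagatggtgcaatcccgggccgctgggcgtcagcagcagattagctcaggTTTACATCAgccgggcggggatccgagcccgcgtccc
Atf3, chr1:191183284-191183583, minus strand: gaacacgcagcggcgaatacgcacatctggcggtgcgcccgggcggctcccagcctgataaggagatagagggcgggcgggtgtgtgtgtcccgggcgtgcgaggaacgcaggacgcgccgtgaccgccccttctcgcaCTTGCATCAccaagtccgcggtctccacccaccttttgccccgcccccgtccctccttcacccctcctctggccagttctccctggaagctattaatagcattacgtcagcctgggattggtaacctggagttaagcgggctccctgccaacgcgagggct
Fgf21, chr7:45615441-45615740, minus strand: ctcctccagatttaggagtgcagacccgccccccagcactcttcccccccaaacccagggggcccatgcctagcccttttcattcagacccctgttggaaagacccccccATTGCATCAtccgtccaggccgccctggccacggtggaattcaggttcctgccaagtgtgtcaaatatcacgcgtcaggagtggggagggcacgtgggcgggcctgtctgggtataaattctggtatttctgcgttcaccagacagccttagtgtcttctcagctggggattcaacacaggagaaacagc
The ERSE of Hspa5 lay 65 to 47 bases before the start, that of Creld2 126 to 108 and that of Derl3 156 to 138 bases before it. The CARE of Chac1 lay 194 to 186, that of Fgf21 140 to 132 and that of Atf3 111 to 103 bases before the start, and that of Trib3 at bases 14 to 22 of the transcript.

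Windows were at hand for 14200 of the 24064 tested genes, and matches on either strand were counted without a test. An ERSE was found in 13 of 1316 genes called higher (0.988%), in 0 of 397 called lower, and in 23 of all 14200 (0.162%). An ERSE-II was found in 6 genes called higher (0.456%), in none called lower and in 9 of all (0.0634%). A CARE was found in 3.95% of the genes called higher, 3.02% of those called lower and 2.97% of all, and the XBP1-type UPRE (TGACGTGG) in 2.28%, 0.252% and 0.958%. ERSE matches fell in 7 of the 24 chaperone genes with a window, in 2 of 21 degradation genes and in none of the 19 sensor and factor or the 23 PERK target genes. CARE matches fell in 6 of those 23 and in 3 of the 19. A match says only that the letters are present.

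In N-glycan assembly and transfer, the pathway that TM blocks, 19 of 44 genes were higher and none lower, beside shares of 7.54% and 2.57% over all genes. The list had a median log2 fold change of 0.72, and 0.58 without control 1. With all libraries, the median was -0.13 over all tested genes and 0.20 over those with a mean of 50 or more. Dpagt1, the target of TM, had 263.9, 271.3 and 267.3 normalized counts in TM kidneys, against 93.62, 111.6 and 93.89 in control kidneys (1.42 ± 0.18, adjusted p = 0.000878). Larger rises were seen in the genes that supply activated sugars, with 3.30 for Gmppb, 2.56 for Gfpt1 and 2.26 for Gnpnat1. Among the subunits of the oligosaccharyltransferase, which moves the chain onto protein, Ostc, Stt3a and Rpn1 rose by 2.06, 1.99 and 1.74. The transferases that extend the lipid-linked chain were split, with 1.64 for Alg2 and 1.39 for Alg12 but -0.28 for Alg5 and -0.30 for Alg6, which were not called. Mfsd2a, a lipid transporter that is known from human cells as an import route for TM, did not pass the test (227, 215.2 and 233.5 in TM kidneys, against 234.1, 157.4 and 201.9 in control kidneys). Of the list, 11 genes were called with limma's trend switched off.

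The machinery that brings proteins into the ER and carries them onward rose broadly. Among all tested genes, 7.54% were called higher and 2.57% lower. In ER translocation, 21 of 26 genes were higher and 1 lower (median 1.26), led by the channel subunit Sec61a1 (2340, 2354 and 2013 normalized counts in TM kidneys, against 312.1, 542.6 and 507.8 in control kidneys). Srprb, the beta subunit of the signal recognition particle receptor, rose by 2.25 and Sec61b by 2.13, and the gene that fell was Tram2 (-1.36, adjusted p = 0.00371). In ER to Golgi transport, 31 of 40 genes were higher and none lower (median 1.52). Sec24d, a cargo adaptor of the COPII coat, had 2190, 2246 and 2298 in TM kidneys, against 148.2, 179.6 and 208.1 in control kidneys (3.66 ± 0.19, adjusted p = 4.08e-06). The other SEC24 paralogs had log2 fold changes of 0.79 (Sec24a), 0.57 (Sec24c) and 0.45 (Sec24b) and were not called. Mcfd2, a cofactor of the cargo receptor LMAN1, rose by 3.01 and Tmed9 by 2.37. With the trend switched off, 20 of the 40 were called.

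All 20 cytosolic aminoacyl-tRNA synthetase genes tested were higher with TM (median 2.06, with all 20 also without control 1). Wars, for tryptophan, had 1778, 1737 and 1600 normalized counts in TM kidneys, against 150.8, 194.1 and 198.7 in control kidneys (3.24 ± 0.19, adjusted p = 5.94e-06). Gars (glycine, 3.03) and Nars (asparagine, 2.82) followed, and the smallest rises were those of Kars (lysine, 0.83) and Dars (aspartate, 0.81). Of 52 genes for ribosome biogenesis and the nucleolus, 40 were higher and none lower (median 1.12). Myc, the factor that drives many of them, had 578.2, 628.8 and 663.4 in TM kidneys, against 75.42, 43.56 and 34.43 in control kidneys (3.66 ± 0.27). Gnl3 (nucleostemin) and Nop58 (box C/D ribonucleoprotein) rose by 2.66 and 2.49. With the trend switched off, 25 of the 52 were called. The 40 cytosolic ribosomal protein genes had a median of 0.50, but 3 were called, among them Rpl10 and Rpl18 with 0.85 and 0.80. The share called higher over all genes was 7.54%. The count of 3 became 9 without control 1 and 0 without any other library. Ribosomal protein genes have processed copies in the genome, and the sources do not say how reads shared with these were counted.

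Protein quality control outside the ER had smaller median changes, from 0.44 for autophagy to 0.67 for heat shock genes (0.29 and 0.51 without control 1). Over all tested genes, 7.54% were higher and 2.57% lower. Of 33 proteasome genes, 9 were higher and none lower (median 0.53, and 0.49 without control 1). Adrm1, a ubiquitin receptor of the proteasome, had 701.6, 662.6 and 548.3 normalized counts in TM kidneys, against 260.1, 351.6 and 356 in control kidneys (0.99 ± 0.20, adjusted p = 0.0123). The proteasome count was 0, 0 and 1 without TM 1, TM 2 and TM 3, 5 and 4 without controls 2 and 3, and 11 without control 1. Of 21 cytosolic and mitochondrial heat shock genes, 8 were higher, with Hspa9, the mitochondrial HSP70, at 1.81 (not called without TM 1) and the co-chaperone Bag3 at 1.38. The inducible cytosolic genes Hspa1a (0.30) and Hspa1b (0.38), near-identical copies whose reads can be divided between them, were not called. The count of 8 became 1, 2 and 2 without TM 1, TM 2 and TM 3. Of 25 autophagy genes, 5 were higher. Sqstm1 (p62), a cargo receptor, rose the most, with 19148, 17034 and 13906 in TM kidneys, against 980.4, 1913 and 2176 in control kidneys (3.37 ± 0.35, adjusted p = 0.000217, and 3.02 without control 1). The next, Gabarap and Atg12, were both at 0.96, and the count of 5 became 2, 2 and 1 without TM 1, TM 2 and TM 3 and 2 without control 2 or control 3. Respiratory chain subunits encoded in the nucleus showed no call among 39 genes in limma, with or without control 1 (median 0.24, and 0.12 without it). None was called in edgeR or DESeq2 on the recovered reads. In limma, 3 of the 39 had an unadjusted p below 0.05, beside 5926 of all 24064 genes.

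**Figure D3:**
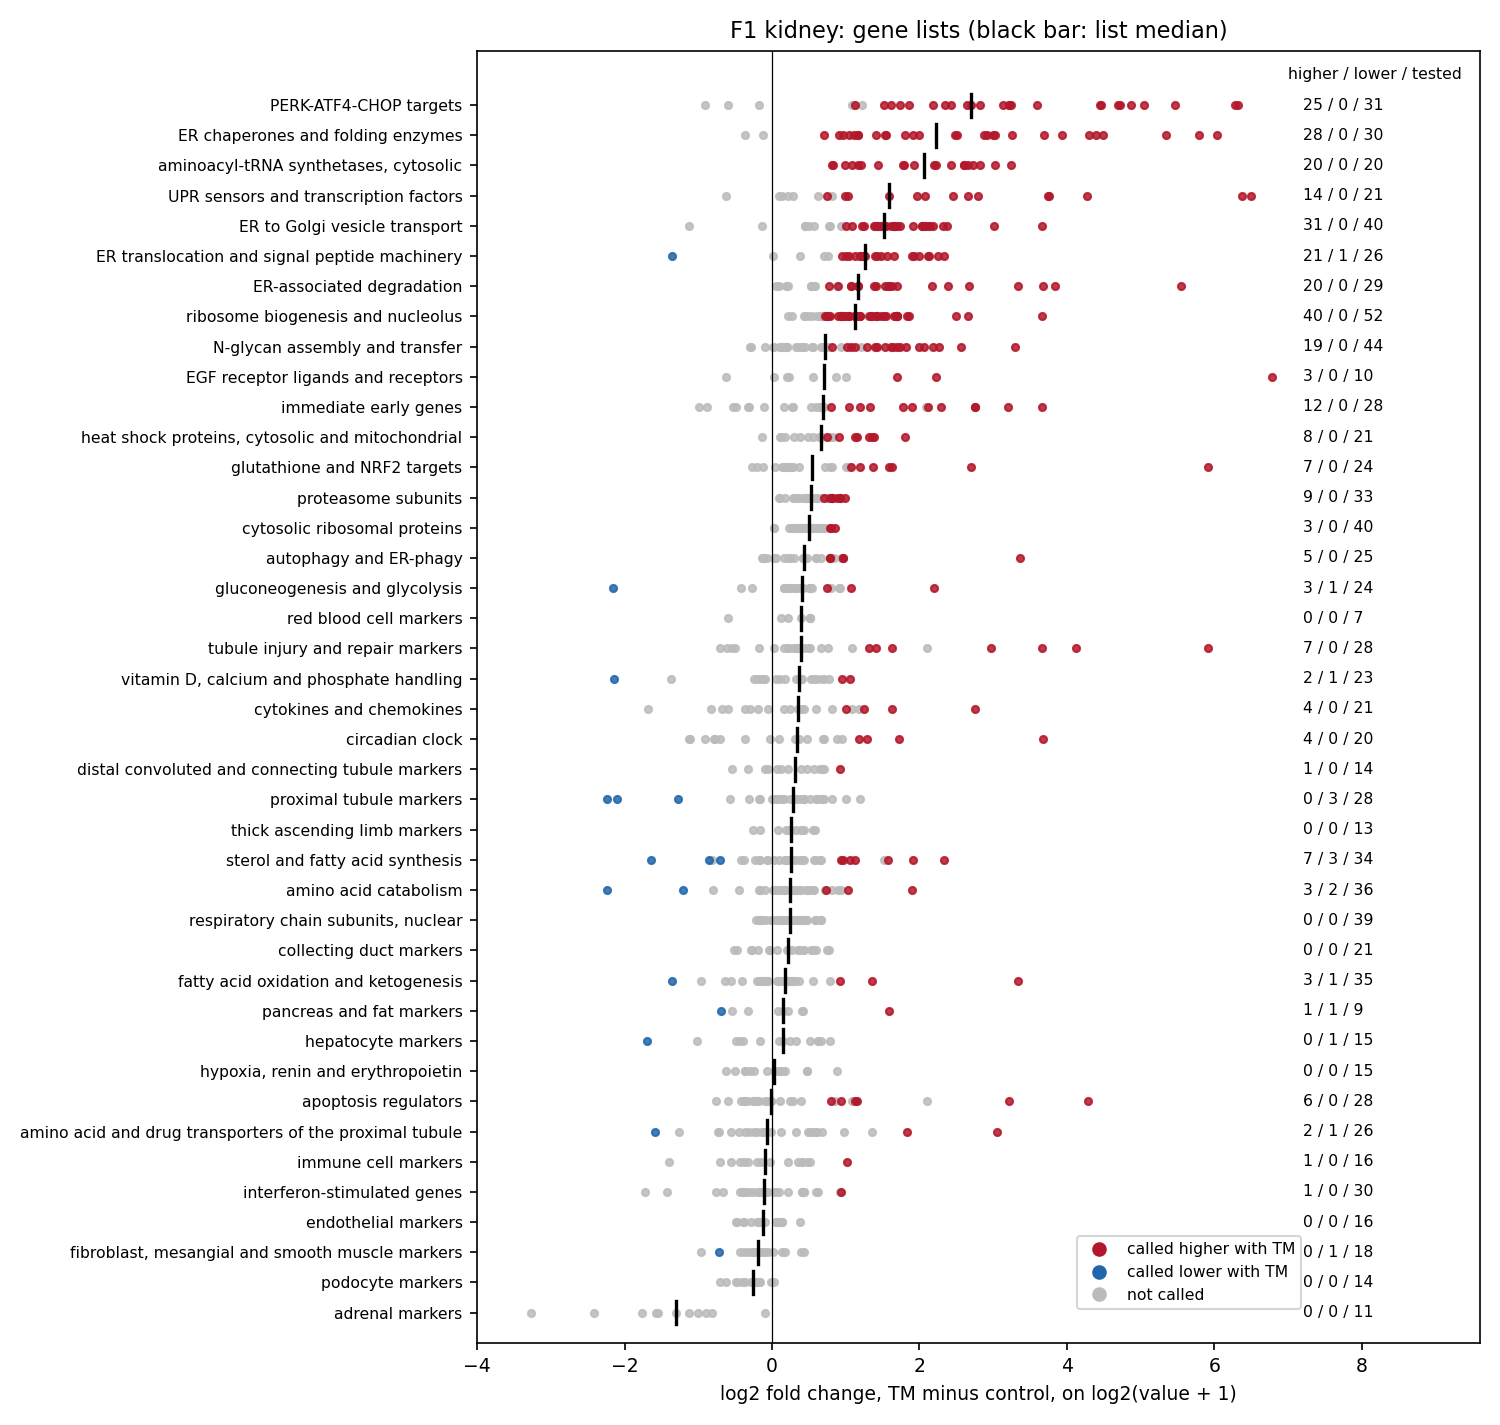
Log2 fold changes (horizontal axis) of the tested members of 41 gene lists in F1 kidney, TM minus control, with red for called higher, blue for called lower, grey for not called and a black bar at the list median. Medians run from 2.70 for PERK-ATF4-CHOP targets to -1.30 for adrenal markers, and the counts at the right give higher, lower and tested members. Of the 11 adrenal markers tested, 6 passed the mean filter without control 1, with a median of -1.88.

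Genes of cell cycle arrest, apoptosis and the early growth response moved in part. Of 28 apoptosis regulators, 6 were higher and none lower, and the median was -0.02. Over all tested genes, 7.54% were higher and 2.57% lower, and 11.1% and 7.53% without control 1. Gadd45a, which acts in growth arrest, had 2196, 2004 and 2070 normalized counts in TM kidneys, against 104, 95.53 and 120.5 in control kidneys (4.28 ± 0.18, adjusted p = 1.7e-06). Pmaip1 (NOXA), a BH3-only protein, had 857.5, 763.1 and 763.2 in TM kidneys, against 93.62, 78.72 and 81.37 in control kidneys (3.22 ± 0.18). The caspase genes Casp9 (-0.09) and Casp12 (0.11) were not called. Without control 1 the counts were 8 higher and 2 lower, and they were 3 higher without any single TM library. Cdkn1a (p21) had 63.39, 50.69 and 49.92 in TM kidneys, against 46.81, 4.586 and 7.042 in control kidneys, with control 1 close to the TM values (2.10 ± 0.66, adjusted p = 0.0753, and 3.05 with an adjusted p of 0.00012 without control 1). Of 28 immediate early genes, 12 were higher and none lower, with Maff (3.20, and 3.79 without control 1), Ccn1 (2.76), Btg2 (2.75) and Jun (2.29) at the top after Myc. Fos (0.67), Fosb (-0.99) and Nr4a1 (-0.49) were not called. Of 10 EGF receptor ligands and receptors, Areg, Hbegf (2.22) and Egfr (1.69) were higher and none was lower, and Tgfa (-0.62) and Egf (0.55) were not called. Egfr had 2280, 2898 and 2183 in TM kidneys, against 439.5, 1029 and 941.3 in control kidneys. Its log2 fold change was 1.31 without control 1, and its call was lost without TM 2.

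Of 28 markers of tubule injury and repair, 7 were higher and none lower, beside shares of 7.54% and 2.57% over all genes. Among the 7 were Hmox1 (5.91) and Myc (3.66), which are also members of other lists described here. Havcr1 (KIM-1), the receptor that injured proximal tubule cells expose, had 322.1, 113.8 and 65.21 normalized counts in TM kidneys, against 26, 11.46 and 14.08 in control kidneys (2.97 ± 0.52, adjusted p = 0.00508). TM 1 was the highest library, and TM 3, the lowest of the treated, still exceeded the highest control. Lcn2 (NGAL), a marker of distal injury, had 25.7, 9.783 and 6.441 in TM kidneys, against 52.01, 3.057 and 5.477 in control kidneys, with the highest value in control 1 and no call (0.21 ± 0.90). Tnfrsf12a, the receptor for TWEAK, had 1238, 820 and 1084 in TM kidneys, against 88.42, 43.56 and 50.08 in control kidneys (4.13 ± 0.28). Krt8 (1.41) and Plin2 (1.32) were also higher, while Spp1 (0.35), Vim (0.02) and Sox9 (-0.70) were not called. Of 21 cytokine and chemokine genes, 4 were higher and none lower, Cxcl1 (2.75), Il34 (1.63), Icam1 (1.25) and Nfkbiz (1.00), and the count was 3, 2 and 2 without TM 1, TM 2 and TM 3. Of 30 interferon-stimulated genes, Gbp2 (0.93 ± 0.22) was the single call, a call that was lost without control 3 or any TM library, and 1 gene was lower without control 1.

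Most members of the lipid metabolism lists did not pass the test. Among 34 genes of sterol and fatty acid synthesis, 7 were higher and 3 lower. Sqle (squalene epoxidase) had 1963, 1847 and 1750 normalized counts in TM kidneys, against 338.1, 366.9 and 396.7 in control kidneys (2.33 ± 0.18, adjusted p = 4.13e-05), and Mvd rose by 1.91 and Msmo1 by 1.57. Dhcr7, the last step to cholesterol, fell by 1.64 on the log2 scale. These counts were 4, 3 and 3 higher and 1, 1 and 1 lower without TM 1, TM 2 and TM 3, 4 higher and 1 lower without control 3, and 6 higher and 1 lower without control 2. Among 35 fatty acid oxidation genes, 3 were higher and 1 lower, which became 3 and 5 without control 1. Without TM 1, TM 2 and TM 3, the numbers higher were 1, 2 and 1, with none lower. The shares over all genes were 7.54% higher and 2.57% lower. Acot2, a mitochondrial acyl-CoA thioesterase, had 2178, 2380 and 2018 in TM kidneys, against 130, 259.9 and 301.2 in control kidneys (3.33 ± 0.29). Its near-identical cytosolic paralog Acot1 was at 0.92 ± 0.22, and reads shared by the pair make their separate values uncertain. Ppara, the receptor that drives many of these genes, fell by 1.36 (214.2, 312.2 and 266.5 in TM kidneys, against 392.7, 996.6 and 773.8 in control kidneys), a call that was lost without control 3 or any TM library.

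Of 24 genes of gluconeogenesis and glycolysis, 3 were higher and 1 lower, and of 36 of amino acid catabolism, 3 were higher and 2 lower, beside shares of 7.54% and 2.57% over all genes. The glycolysis count was 1 higher without TM 1, TM 2 or TM 3 and 5 higher and 2 lower without control 1, and the catabolism count was 1 higher without TM 1, TM 2, TM 3 or control 3, with 1 lower without TM 1, TM 3 or control 3, and 2 higher and 3 lower without control 1. G6pc, which releases glucose in proximal tubule and liver, had 597.1, 467.8 and 357.5 normalized counts in TM kidneys, against 998.6, 3487 and 2573 in control kidneys (-2.16 ± 0.40, adjusted p = 0.00745). Pck2, the mitochondrial PEPCK and an ATF4 target, had 520, 506.1 and 529 in TM kidneys, against 122.2, 113.9 and 100.2 in control kidneys (2.20 ± 0.18). The cytosolic PEPCK gene Pck1 had 27910, 19925 and 12227 in TM kidneys, against 12189, 21806 and 18277 in control kidneys, with overlapping groups (0.16 ± 0.47). Gatm, the first enzyme of creatine synthesis and abundant in proximal tubule, had 904.6, 567.4 and 727 in TM kidneys, against 2658, 4100 and 3634 in control kidneys (-2.24 ± 0.25, adjusted p = 0.000418). Gldc of the glycine cleavage system fell by 1.21 (not called without control 3, TM 1 or TM 3), and Got1 (aspartate aminotransferase) rose by 1.90 (1.49 without control 1). Among 24 glutathione and NRF2 genes, 7 were higher and none lower, after Hmox1 with Slc7a11 (cystine import, 2.70, and 3.37 without control 1), Srxn1 (1.63), Mt1 (1.59) and Txnrd1 (1.37). Nqo1 (0.78) and Gclc (0.72) were not called, and the count of 7 became 4 without TM 1.

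Counts for transporters and the clock moved with control 1. Among 26 amino acid and drug transporters of the proximal tubule, 2 were higher and 1 lower with all libraries, 3 and 8 without control 1, and 4 and 1 without control 2. Over all tested genes, 7.54% were higher and 2.57% lower, and 11.1% and 7.53% without control 1. Slc3a2, the heavy chain of several amino acid exchangers, had 5845, 6113 and 4897 normalized counts in TM kidneys, against 421.3, 810.9 and 897.5 in control kidneys (3.05 ± 0.30). Its partner Slc7a5 (LAT1) had 195.3, 234.8 and 195.6 in TM kidneys, against 72.81, 59.61 and 43.82 in control kidneys (1.83 ± 0.23). Slc36a1, a proton-coupled amino acid transporter, fell by 1.59, and that call was lost without control 3 or any TM library. In vitamin D, calcium and phosphate handling, Cyp24a1, which inactivates vitamin D, had 42.83, 105 and 141.7 in TM kidneys, against 275.7, 525.8 and 397.5 in control kidneys (-2.15 ± 0.40, adjusted p = 0.00704). Slc9a3r1 (1.06) and Atp2b1 (0.95) were higher. Both calls were lost without any single TM library, and that of Atp2b1 also without control 3. Of 20 clock genes, 4 were higher, led by the repressor Nfil3 with 321.2, 336.2 and 285 in TM kidneys, against 23.41, 24.46 and 23.47 in control kidneys (3.67 ± 0.20), and none was lower, against 5 and 5 without control 1. Collection times within the day are not given in the labels, so a part of time of day in these genes was not tested. In the list of hypoxia, renin and erythropoietin, none of 15 genes was called by limma with all libraries, and 3 were lower without control 1. An unadjusted p below 0.05 was found in 2 of the 15, beside 5926 of all 24064 genes. Egln3, an oxygen-dependent hydroxylase, had 88.23, 111.2 and 83.73 in TM kidneys, against 130, 151.3 and 154.9 in control kidneys (-0.63 ± 0.20, adjusted p = 0.0846, and 0.021 without control 1).

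Markers of nephron segments and other cells served to check the tissue. In bulk tissue, fewer cells of a type and less RNA per cell cannot be told apart. Tubule markers were abundant in each library, with Slc34a1, the phosphate transporter of the proximal tubule, at 21331, 25788 and 18000 normalized counts in TM kidneys, against 5682, 23261 and 20900 in control kidneys. Umod, of the thick ascending limb, had 17589, 14958 and 11217 in TM kidneys, against 5063, 14813 and 11824 in control kidneys. Slc12a3, of the distal convoluted tubule, had 3106, 6642 and 6613 in TM kidneys, against 1904, 7537 and 7343 in control kidneys. Aqp2, of the collecting duct, had 742.7, 1001 and 710.1 in TM kidneys, against 195, 840.7 and 648.6 in control kidneys. Control 1 was the lowest library in all 4, the groups overlapped, and none passed the test. The podocyte gene Nphs1 (-0.28 ± 0.23) and the endothelial gene Pecam1 (0.05 ± 0.18) did not pass it either, and control 1 lay among the other libraries for Nphs1 and was the lowest for Pecam1 (554.1 in TM 2, against 553.9 in control 1).

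**Figure D4:**
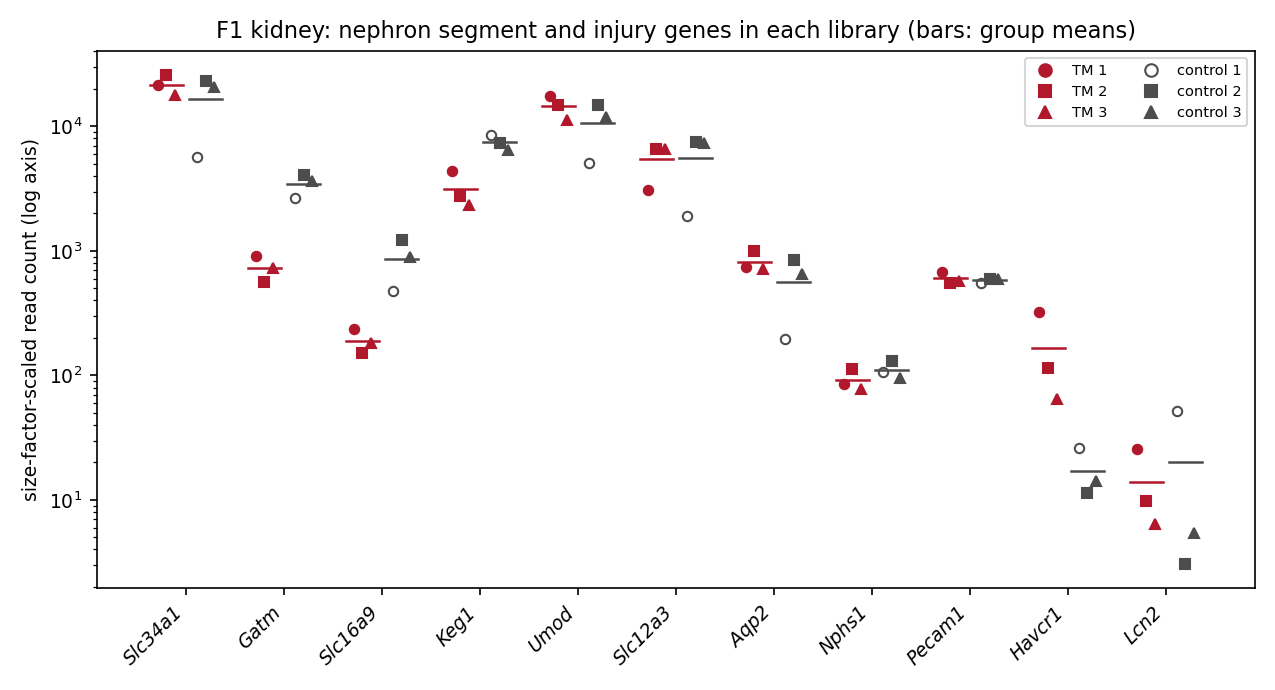
Normalized counts (log axis) of nephron segment, podocyte, endothelial and injury genes in each F1 kidney library, TM in red left of control in grey, with a bar at each group mean. Gatm, Slc16a9 and Keg1 are lower in all 3 TM libraries, and control 1 (open circle) is the lowest library in Slc34a1, Umod, Slc12a3 and Aqp2.

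Of 28 proximal tubule markers, 3 were lower and none higher (median 0.28, and -0.14 without control 1, with 4 lower and 1 higher). Over all tested genes, 2.57% were lower and 7.54% higher, and 7.53% and 11.1% without control 1. The 3 were Gatm, Slc16a9, a monocarboxylate transporter (233.9, 150.3 and 183.6 normalized counts in TM kidneys, against 473.3, 1214 and 896.7 in control kidneys), and Keg1, a kidney-expressed transferase (4407, 2756 and 2324 in TM kidneys, against 8545, 7384 and 6457 in control kidneys). The fall of Keg1 (-1.28 ± 0.31) was not called without control 2, control 3, TM 2 or TM 3. The summed level of the proximal tubule list ran from 276000.9 to 344199.1 in TM kidneys and from 247655.6 to 381172.3 in control kidneys. Of 13 thick ascending limb, 21 collecting duct, 14 podocyte and 16 endothelial markers none was called by limma, and 0, 1, 2 and 0 had an unadjusted p below 0.05. Over all tested genes, 5926 of 24064 had such a p-value. Without control 1, 3 podocyte and 1 endothelial markers were lower and 1 collecting duct marker was higher. Of 14 distal tubule markers 1 was higher (Cnnm2, 0.92), a call that was lost without TM 2 or TM 3, and of 18 fibroblast and smooth muscle markers 1 was lower (Itga8, -0.72), a call that was lost without any library but control 1. Of 16 immune cell markers, the macrophage gene Adgre1 was higher (1.02 ± 0.27), which was not called without TM 1, TM 2, control 2 or control 3, and their summed level was 1892.8 to 2517.7 in TM kidneys and 2016.1 to 2080.4 in control kidneys. Hepatocyte markers had summed levels of 3931.3 to 6872.8 in TM kidneys and 4540.5 to 5794.6 in control kidneys, and Alb was between 17.21 and 61.37 in the 6 libraries. Of these markers Ttr, a thyroxine carrier, was lower (-1.70). Adrenal markers summed to 83.7 to 109.7 in TM kidneys and to 343.3, 104.7 and 749.6 in control kidneys, and none of the 11 was called by limma (1 had an unadjusted p below 0.05), against 1 lower without control 1 and 3 lower without control 2. Of 9 pancreas and fat markers, Ucp1, the uncoupling protein of brown fat, was higher, with 260.4, 214.3 and 456.5 normalized counts in TM kidneys, against 72.81, 124.6 and 101.7 in control kidneys (1.59 ± 0.30, adjusted p = 0.00812), and Cela1, an elastase, was lower (-0.69), which was not called without any library but control 1. The fat gene Adipoq was not called (0.21), and the summed level of this list was 1757 to 2447.5 in TM kidneys and 1569.6 to 2090.8 in control kidneys. Of 7 red blood cell markers none was called by limma (2 had an unadjusted p below 0.05), and 2 were higher without control 1. Their summed level was 9913.8 to 12129.1 in TM kidneys and 6651.5 to 8951.1 in control kidneys. The part of these cells in other results was not tested.

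The genes with the largest falls (among called genes with a mean of at least 50) came from several functions. Ano3, a member of the anoctamin family of membrane proteins, had 5.997, 9.783 and 8.856 normalized counts in TM kidneys, against 44.21, 119.2 and 145.5 in control kidneys (-3.36 ± 0.44, adjusted p = 0.00103). Cit, the citron kinase of cell division, had 53.11, 29.35 and 25.76 in TM kidneys, against 340.7, 275.1 and 219.1 in control kidneys (-2.96 ± 0.29). Kif20b, a mitotic kinesin, had 69.39, 49.8 and 49.11 in TM kidneys, against 572.1, 257.6 and 446.8 in control kidneys (-2.84 ± 0.29). In both cell division genes the highest TM value was below the lowest control value. Col27a1, a fibrillar collagen, had 251.8, 240.1 and 210.1 in TM kidneys, against 1017, 2044 and 1538 in control kidneys (-2.65 ± 0.25). Ces1d, a carboxylesterase, had 350.4, 325.5 and 249.6 in TM kidneys, against 1051, 3103 and 2171 in control kidneys (-2.65 ± 0.35), and its neighbour in the same family Ces1f was at -0.94 ± 0.32 (adjusted p = 0.0998, and 0.0045 without control 1). Family members with like sequences can share reads. The others were Nepn (-2.61), Grin2b (-2.59), Paqr7 (-2.41), Vmn1r18 (-2.39), Fbxo40 (-2.38), Ksr2 (-2.29) and Bcl11b (-2.25). Vmn1r18 belongs to the vomeronasal receptors, and with 697.8 and 722.2 normalized counts in controls 2 and 3 against 270.5 in control 1 it did not follow the excess of receptor reads in control 1. Of 133 receptor genes tested, 2 were lower and none higher (median -0.84). Receptor genes can pass the mean filter through control 1 alone, so this median is not independent of that library.

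The response of F1 kidney was set beside those of B6 and CAST kidneys, the parental strains, which were treated alike. Each table was normalized apart, so fold changes and not levels are compared. For all 3 kidneys, Hspa5, Ddit3, Atf3, Chac1, Areg and Xbp1 were called higher. Areg had a log2 fold change of 6.78 in F1 kidney, against 7.78 in B6 and 8.80 in CAST kidney, Ddit3 had 6.38, against 6.93 and 6.46, and Xbp1 had 1.96, against 1.37 and 1.36. Normalized counts of Areg in B6 kidney were 579.2, 166.2 and 428.2 with TM, against 1.072, 0 and 0.8987 in controls. In CAST kidney they were 1297, 1070 and 1219, against 1.191, 3.495 and 0.9404. The size of the Areg folds thus rests on few control reads and on the 1 added before log2. Of the 1811 genes called higher in F1 kidney among those tested in both tables (8.8%), 1318 (72.8%) were called higher in B6 kidney, which is 64.4% of the 2045 called there (9.94% of 20568). Of the 603 called lower (2.93%), 424 (70.3%) were called lower in B6 kidney, or 25.3% of 1677 there (8.15%). In CAST kidney, 1280 of 1814 (70.6%, with 9.02% of genes called higher in F1 kidney) were called higher, or 72.2% of 1773 (8.81% of 20118), and 342 of 584 (58.6%, with 2.9% of genes called lower in F1 kidney) lower, or 34.1% of 1002 (4.98%). No gene was called in opposite directions.

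The difference between the F1 response and that of each parent was tested as an interaction of genotype and treatment. At an adjusted p below 0.05, 0 of 20568 genes (0%) were called as different between F1 and B6 kidney and 0 of 20118 genes (0%) between F1 and CAST kidney in limma, where 1668 and 638 genes had an unadjusted p below 0.05. In edgeR on the recovered reads, 1 gene differed from B6 and 0 from CAST kidney, and in DESeq2 47 and 11 genes. Median standard errors of these differences were 0.358 and 0.392 on the log2 scale. The difference for Areg between F1 and CAST kidney was -2.02 ± 0.44 (limma, unadjusted p = 0.000325, adjusted p = 0.739). Among the named genes, Hrk and Slc7a5 had the smallest unadjusted p against B6 kidney. Hrk had 1.15 in F1 and 3.99 in B6 kidney (difference -2.84 ± 0.45, limma unadjusted p = 1.74e-05). Slc7a5 had 1.83 and 4.03 (-2.19 ± 0.35, unadjusted p = 1.84e-05), and the adjusted p was 0.189 for both.

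The response of F1 kidney and F1 liver was compared in the same way, with 5 liver libraries (2 TM, 3 control) of the same cross, dose and records. In liver, Gm10800, a repeat-rich predicted gene, took 18.3% of the reads of TM 2 and 61.54% of those of control 2, against 6.87% in F1 kidney TM 2. Liver TM 2 also had a receptor level of 1995 CPM. Of the 1800 genes called higher in F1 kidney among those tested in both (8.76%), 552 (30.7%) were called higher in F1 liver, which is 71.6% of the 771 called there (3.75% of 20539), and 16 were called lower in liver. Of 535 called lower in F1 kidney (2.6%), 89 (16.6%) were lower in liver, or 10.1% of 879 there (4.28%), and 1 was higher. Median log2 fold changes of the 1800 genes were 1.13 in kidney and 1.05 in liver, and of the 535 genes -1.27 and -0.47. A gene without a call in liver can thus have risen there. ER chaperones had a median of 2.23 in F1 kidney and 2.58 in F1 liver, and degradation genes 1.17 and 1.16. None of their 30 and 29 genes was called as different between the tissues by limma. An unadjusted p below 0.05 was found in 5 and 4 of them, and in 2758 of all 20539 genes. Hspa5 rose by 5.35 in kidney and 4.61 in liver (difference 0.74 ± 0.64, adjusted p = 0.676), and Ddit3 by 6.38 and 6.81 (-0.43 ± 0.52).

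A total of 336 genes (1.64% of 20539) responded differently in the 2 tissues, 267 with a higher and 69 with a lower log2 fold change in F1 kidney. In the largest class, 194 genes fell in liver without a call in kidney, and 16 rose in kidney and fell in liver. Called differences were found in many of the gene lists. Of 30 PERK targets 6 were called, Ppp1r15a, Cth, Cars, Gpt2 and Eif4ebp1 with a higher response in kidney and Tes with a lower one. Of 21 UPR sensors and factors 4 were called (Xbp1, Atf5, Cebpb and Nupr1), 3 higher and 1 lower in kidney. The tRNA synthetases Cars and Mars were higher. So were 3 of 7 red blood cell markers, Hba-a1, Hba-a2 and Hbb-bt (list median 0.39 in kidney and -1.42 in liver). The NRF2, immediate early and sterol lists each held 3 genes with a higher response in kidney. Proximal tubule markers had 1 higher and 2 lower, and several other lists held 1 or 2 calls. In fatty acid oxidation 5 of 35 genes had a higher response in kidney (median 0.17 in kidney and -1.59 in liver), and in amino acid catabolism 4 had a higher and 1 a lower response of 35 (0.26 and -1.30). Without control 1 the kidney medians of these 2 lists were -0.13 and -0.04. Unadjusted p-values below 0.05 were given by 32 of the 35 oxidation genes, 27 of the 35 catabolism genes and 25 of 39 respiratory chain genes, of which none was called (median 0.24 in kidney and -0.85 in liver). Over all genes, 2758 of 20539 had such a p-value. Hmox1 rose by 5.91 in kidney and 1.99 in liver (difference 3.92 ± 0.47, adjusted p = 0.00338), and Plk3 by 5.39 and 2.22 (3.17 ± 0.49, adjusted p = 0.00853). Xbp1 had 1.96 in kidney and -0.03 in liver (adjusted p = 0.0434), and Egfr 1.69 and -1.73 (adjusted p = 0.018). Pck1, not called in kidney, had 471.3 and 445.5 normalized counts in TM livers, against 27473, 13501 and 28743 in control livers (log2 fold change 0.16 in kidney and -5.58 in liver, adjusted p of the difference 0.00268). Among the 336, 9 genes fell in kidney without a call in liver, among them Kif20b (-2.84, against 0.54, adjusted p = 0.0414), Gatm (-2.24, against -0.18, adjusted p = 0.0316) and Slc16a9 (-2.10, against 0.54, adjusted p = 0.0292). Gatm and Slc16a9 were low in liver. Gatm had 45.12 and 53.51 normalized counts in TM livers, against 56.69, 39.14 and 77.35 in control livers. Slc16a9 had 22.91 and 14.46, against 13.34, 13.81 and 9.791. The count of 336 was 295 without F1 kidney control 1, 1520 without F1 liver control 2 and 192 without F1 liver TM 2. It ranged from 96 to 156 without F1 kidney TM 1, TM 2, TM 3 or control 3 or without F1 liver control 1 or 3, was 195 without F1 kidney control 2, and was 5 with limma's trend switched off. On the recovered reads it was 106 with edgeR and 1195 with DESeq2. With a block for each treatment and replicate number, as if these marked the mouse, it was 11. Per the study's methods 6 mice per genotype were used, so liver and kidney libraries share animals. The main test took all libraries as independent, and the labels do not say which liver and kidney came from 1 mouse.

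**Figure D5:**
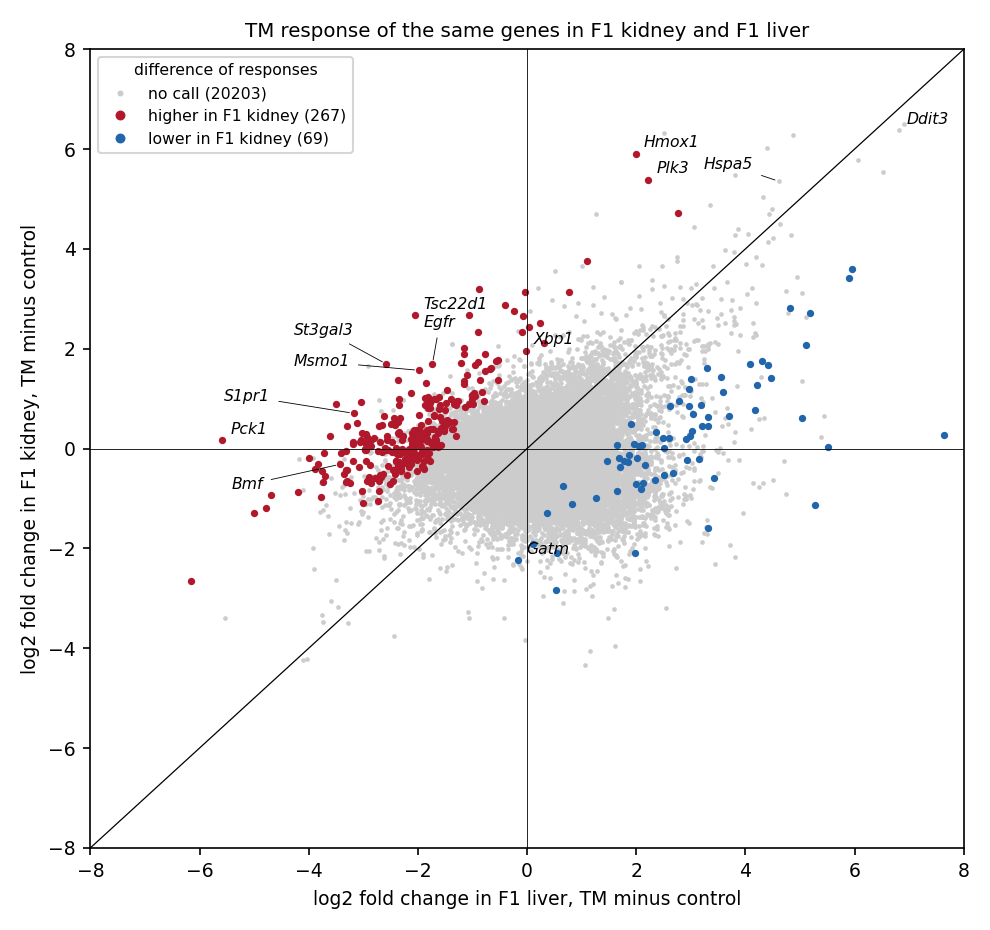
Log2 fold change (TM minus control) of 20539 genes in F1 kidney (vertical axis) against F1 liver (horizontal axis), with the 267 genes of a higher response in F1 kidney in red and the 69 of a lower response in blue. Hspa5 and Ddit3 lie near the line of equal response, and many red points lie near 0 in kidney and below 0 in liver.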

How the data were processed

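Kidney RNA of 3 TM and 3 control F1 mice was analysed, with B6 kidney, CAST kidney and F1 liver tables for comparison, and the liver tables of the parental strains were not used here. The deposited signal values are gene counts that the authors divided by size factors from DESeq2 1.28.1, each table on its own. Reads of F1 mice were aligned with STAR 2.6 to a B6 genome with CAST variants masked, those of parental mice with Bowtie2 2.2.9 to the genome of their strain, with SAMtools 1.12 for file handling. Which program counted reads per gene is not stated. The authors left out samples that did not cluster with their group. After recovery of the size factors, 100% of the deposited values in each library used were whole reads (within 0.01), and F1 kidney libraries held 3355262 to 13646195 reads, which limits the precision of control 1.

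Genes with a mean of at least 5 were tested with limma 3.58.1 (R 4.3.3, variance trend) on log2 of the value plus 1, with Benjamini-Hochberg adjustment over all tested genes. Fold changes are on that scale, which understates the change of low genes. A call needed an adjusted p below 0.05 and a 1.5-fold change. Differences between tables were tested as interactions, with all libraries taken as independent. They were called where the response was also called in at least 1 of the 2 tables. edgeR 4.0.16 and DESeq2 1.42.0 on recovered reads, other pseudocounts (0.5 and 5), filters, scalings, thinning, a replicate block and leaving out each library were alternatives. The fit was also run on simulated counts. These had 1 mean profile for all libraries of a table and changes only in genes with many reads. They thus lacked the differing profile of control 1, and no result given here rests on them. Named genes were the 12 largest rises and 12 largest falls among called genes with a mean of at least 50 and groups that do not overlap, the 3 called genes with the largest change of each list, the 6 genes with the smallest adjusted p of an interaction, and a set of stress and segment genes named whatever their values. Other list members were named after their values were seen. Members and lists were chosen with earlier results of these data known. Motifs were searched in promoter windows by Python 3.11.15. Some genes of the lists are not reported here by name.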

Additional observations from a re-analysis of the deposited data

Results flagged for a closer look

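The number of genes that responded differently in F1 kidney and F1 liver was 336, by the test of the difference itself. The 6 genes of that comparison with the smallest adjusted p (each 0.00268, limma, mean of at least 50) were those below, with the log2 fold change in F1 kidney minus that in F1 liver. In each the 2 TM livers lay below the 3 control livers.

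Pck1, the cytosolic PEPCK, differed by 5.74, with overlapping groups in kidney. Tsc22d1, a transcriptional regulator, differed by 4.72, with 11234, 7095 and 8374 normalized counts in TM kidneys, against 1170, 1425 and 1564 in control kidneys, and 332.5 and 441.8 in TM livers, against 2435, 996.9 and 1667 in control livers. St3gal3, a sialyltransferase, differed by 4.28, at 1.70 in kidney and -2.58 in liver. S1pr1, a receptor for sphingosine 1-phosphate, differed by 3.89, at 0.71 in kidney and -3.18 in liver. Msmo1, a sterol synthesis enzyme, differed by 3.55, at 1.57 in kidney and -1.99 in liver. Bmf, a BH3-only gene, differed by 3.12, at -0.32 in kidney, where it was not called, and -3.43 in liver. Over 21 alternatives, the differences of Tsc22d1, Msmo1 and St3gal3 were called in each, those of S1pr1 and Pck1 in 20 and that of Bmf in 19.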

How the results depend on the processing

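Of the 112 named genes called in F1 kidney, 70 were called under each of 17 alternatives, 40 were lost with limma's trend switched off, 27 without TM 1, TM 2 or TM 3 each, and none with edgeR, DESeq2 or without control 1. The number of genes higher with TM was 635 with the trend off and 836 to 2328 with 1 library left out. The number lower was 254 with the trend off, 934 with DESeq2, 1356 with the replicate block and 248 to 1584 with 1 library left out. Genes higher made up 74.6% of the calls, 84.9% with the median fold change set to 0, 56.8% after thinning, 64.4% with the block and 59.5% without control 1. Same-numbered libraries correlated in their deviations at 0.509, -0.0272 and 0.485, TM 3 correlated more with control 2 (0.523), and the numbers are not known to pair mice. The block gave 2449 genes higher, and edgeR on the recovered reads called 1804 genes higher and 711 lower.

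The kidney and liver difference (336) was 135 without a filter, 545 at a mean of at least 20, and 591 with TMM scaling and also with the median set to 0. It was 5 with the trend off, 106 with edgeR and 1195 with DESeq2. With a block for each treatment and replicate number it was 11, and with 1 library left out it was 96 to 1520. The difference from B6 kidney was 1 with edgeR, 47 with DESeq2 and 0 to 3 with 1 library left out. That from CAST kidney was 11 with DESeq2, 4 with the replicate number within each genotype as a block, and 0 to 2 with 1 library left out. Directions that turned belonged to genes without a call. Mfsd2a was -0.142 after thinning. Lcn2 was -0.507 with edgeR, -0.537 with DESeq2 and -0.523 to 1.33 with 1 library left out. Slc12a3 was -0.0576 with edgeR, -0.0546 with DESeq2, -0.0627 after thinning and -0.531 to 0.489. Pecam1 was -5.42e-05 with edgeR, -0.00453 after thinning and -0.0401 to 0.109. Pck1 was -0.0541 after thinning and -0.118 to 0.478, and Slc34a1 -0.0381 to 0.978. The cause was not tested. Control 1, with 3355262 reads, limits what can be said of genes with low counts.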
